A study of Homo sapiens with 8 samples.

Results

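Collagen genes other than those of collagen VI were described in a human ovarian cancer cell line with and without BRCA1. The members were chosen by name alone, as every gene whose symbol reads COL, a number, A and a number, without the COL6A symbols. This gave 39 of the 25369 named genes in the count table, and 5 further genes with COL6A symbols were set aside. UWB1.289 is a high-grade serous ovarian carcinoma line with a BRCA1 mutation that truncates the protein (BRCA1-null), and BRCA1+ is the same line transduced with BRCA1. Cells of either line received 0.5 uM entinostat, an inhibitor of class I histone deacetylases, or the vehicle DMSO (control) for 24 h, and poly(A) RNA was sequenced in 2 libraries for each of the 4 groups. Each state is thus a single line with its single derivative, and the labels name no vector control for the BRCA1-null line. They do not say whether the 2 libraries of a group came from separate cultures, so p-values measure only the spread between these libraries, which may be technical.

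Collagens are proteins of the extracellular matrix built from a trio of polypeptide chains wound into a triple helix, either copies of a single chain or different chains encoded by separate genes. Fibrillar collagens form the fibrils of connective tissue, and fibril-associated collagens (FACIT) decorate them. Network-forming collagens include collagen IV, the scaffold of the basement membrane on which epithelial cells rest. Transmembrane collagens span the plasma membrane, and collagen VII forms the fibrils that anchor epithelium to the stroma below it.

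Total counts per library lay between 31900158 and 53549893, and a count of 3, taken as the floor per library, corresponded to 0.0552 to 0.0946 counts per 1e6 (CPM). BRCA1, which checks the labels, was lower in the BRCA1-null libraries, with a log2 fold change of -2.14 ± 0.0851 (SE, adjusted p = 5.46e-07) in DMSO. Of 11 epithelial and serous carcinoma markers, 10 exceeded 1 CPM in every library, and the summed level of all 11 was 14195 to 18555 CPM. The other marker, WT1, lay at 0.0184 to 0.500 CPM. A list of 10 fibroblast and stroma markers summed to 67.8 to 87.2 CPM in BRCA1+ and 133 to 170 CPM in BRCA1-null libraries. Of these, DCN and LUM had 0 counts in all 8, while TAGLN lay at 53.5 to 146 CPM, S100A4 at 9.99 to 17.0 CPM and THY1 at 0.450 to 24.4 CPM. The 6 endothelial markers summed to 9.70 to 38.7 CPM in BRCA1+ and 37.1 to 93.1 CPM in BRCA1-null libraries, and 6 leukocyte markers to 16.6 to 25.3 CPM and 27.1 to 39.2 CPM.

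Collagen IV, collagen VIII and collagen XVIII made up most of the collagen RNA in every group. The 39 genes took 0.138% to 0.172% of all counts, and COL4A1, COL4A2, COL18A1 and COL8A1 together held 73.9% to 83.4% of that. Per length, as CPM per kilobase (RPKM), COL4A2 was highest in all groups, at 84.2 ± 2.90 RPKM (SD, n = 2) in BRCA1+ control and 88.1 ± 17.0 RPKM in BRCA1-null control cells. COL4A1, COL18A1 and COL8A1 filled the next ranks, and the order among these changed with the line. In BRCA1+ control cells COL4A1 had 45.9 ± 4.12 RPKM, COL18A1 38.8 ± 0.193 RPKM and COL8A1 35.9 ± 2.56 RPKM, the last pair differing by little more than their spread. In BRCA1-null control cells COL8A1 came second with 63.2 ± 1.21 RPKM, ahead of COL4A1 with 42.8 ± 10.6 RPKM and COL18A1 with 31.1 ± 3.25 RPKM. The 9 network-forming genes held 70.8% to 77.3% of the summed collagen RPKM in every library, and the 11 fibrillar genes 1.41% to 6.43%. COL1A1 and COL1A2, the chains of collagen I, stood at 0.719 ± 0.0451 and 2.05 ± 0.583 RPKM in BRCA1+ control cells.

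Enough counts for a test were present in 29 of the 39 genes. The 10 others were COL3A1, COL5A1, COL5A3, COL9A1, COL11A2, COL15A1, COL19A1, COL20A1, COL23A1 and COL24A1. COL3A1, a major collagen of skin and vessel walls, had 0 counts in all libraries, which allows up to 0.0552 to 0.0946 CPM. COL11A2 also had none, but its only entry lies on an alternative haplotype sequence of chromosome 6 and was not measurable here. COL24A1 had the most counts among the others, between 2 and 11 per library, and none of the remaining 7 exceeded 5 counts in any library.

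Promoter sequences, from RefSeq on GRCh38.p14, were available for 29 of the 39 genes as windows of 250 bases before and 50 after the start. They are shown for members the results turn on, beginning with the pair that encodes the common collagen IV trimer. In all of them capitals mark GGGCGG, the core of the GC box, or CCAAT, the core of the CCAAT box, read on either strand. COL4A1 and COL4A2 are transcribed away from each other on chromosome 13, and the 126 bases between their RefSeq starts (chr13:110307158-110307283, plus strand) hold 1 of each motif.
COL4A1-COL4A2: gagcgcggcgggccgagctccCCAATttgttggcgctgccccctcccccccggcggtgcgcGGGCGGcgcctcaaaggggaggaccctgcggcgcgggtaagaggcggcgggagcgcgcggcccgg

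**Figure D1:**
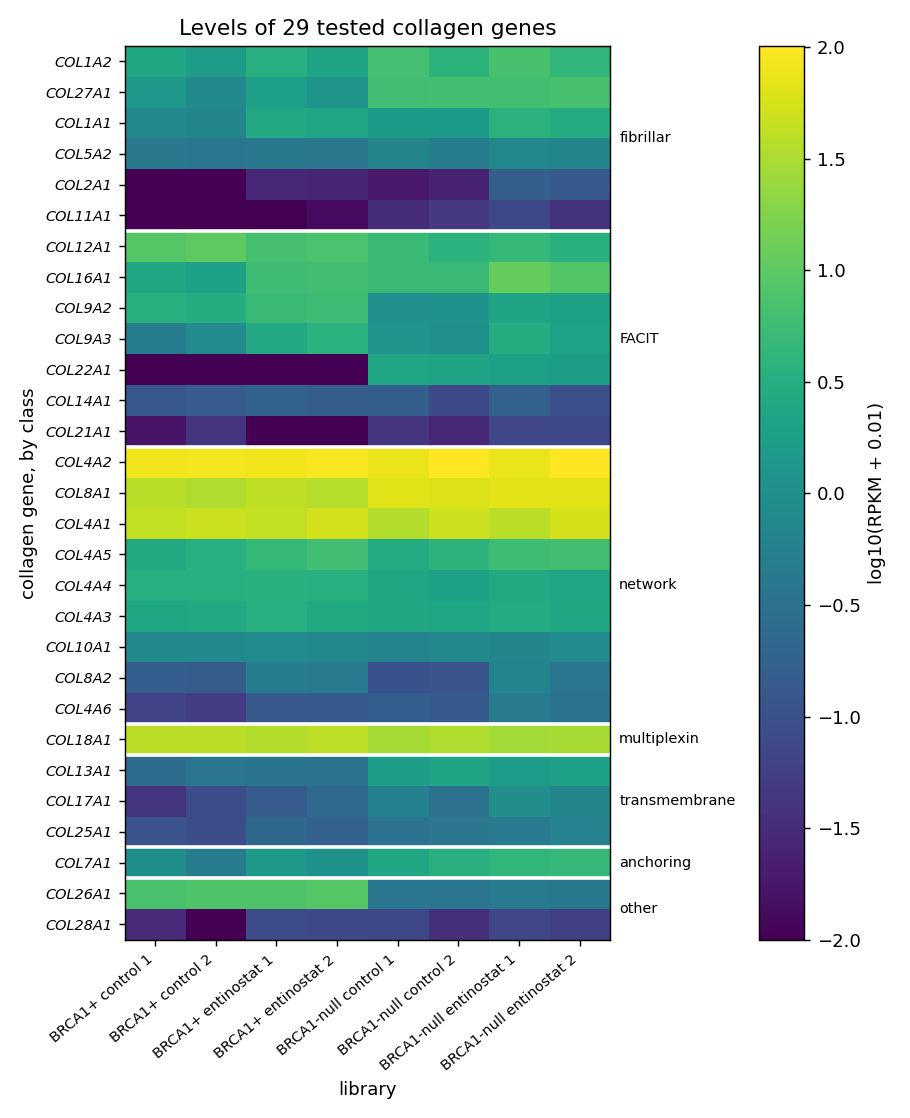
Heat map of the level of the 29 tested collagen genes (rows, by class) in the 8 libraries (columns), as log10 of RPKM plus 0.01. COL4A2, COL4A1, COL8A1 and COL18A1 are bright in every library, COL22A1 is at 0 in the 4 BRCA1+ libraries, and COL26A1 is bright only there.

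The first comparison asked how the collagen genes differ between the BRCA1-null and BRCA1+ lines. In DMSO, 14 of the 29 tested genes were higher in BRCA1-null cells and 5 were lower, which is 65.5% called. Over all 17714 tested genes 42.2% were called, 21.1% higher and 21.0% lower, at a Benjamini-Hochberg adjusted p under 0.05 in edgeR's quasi-likelihood test. In entinostat 15 were higher and 5 lower, 69.0% of the tested collagen genes, where 39.4% of all genes were called (20.5% higher, 18.9% lower). The same 14 genes were higher and the same 5 lower in both media, and COL21A1 was called in entinostat alone. The median log2 fold change was 0.72 in DMSO and 0.44 in entinostat, against 0.01 and 0.02 over all tested genes. COL2A1, COL11A1, COL21A1 and COL22A1 passed the filter on low counts through BRCA1-null libraries alone, so that their direction was set by passing. The medians include these genes, and medians without them were not computed. Of the 24 genes that passed through libraries of both lines, 11 were higher and 5 lower in each medium. No share over all genes was taken with the same restriction. Some markers of cell types were also called between the lines. Of 6 tested fibroblast and stroma markers, TAGLN (log2 fold change 1.11) and THY1 (4.38) were called higher in DMSO and S100A4 (-0.43) lower. Of 6 endothelial markers CDH5 (2.73), KDR (2.06) and VWF were called higher there and 0 lower. Fitted values were positive for 5 of the 6, and PECAM1, not called, lay at -0.95. Of 5 tested leukocyte markers 2 were called higher and 1 lower, and of 11 epithelial markers 2 higher and 3 lower. The part of these in the collagen differences was not tested. Both comparisons are of bulk RNA, in which fewer cells of a type and less RNA per cell cannot be told apart.

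**Figure D2:**
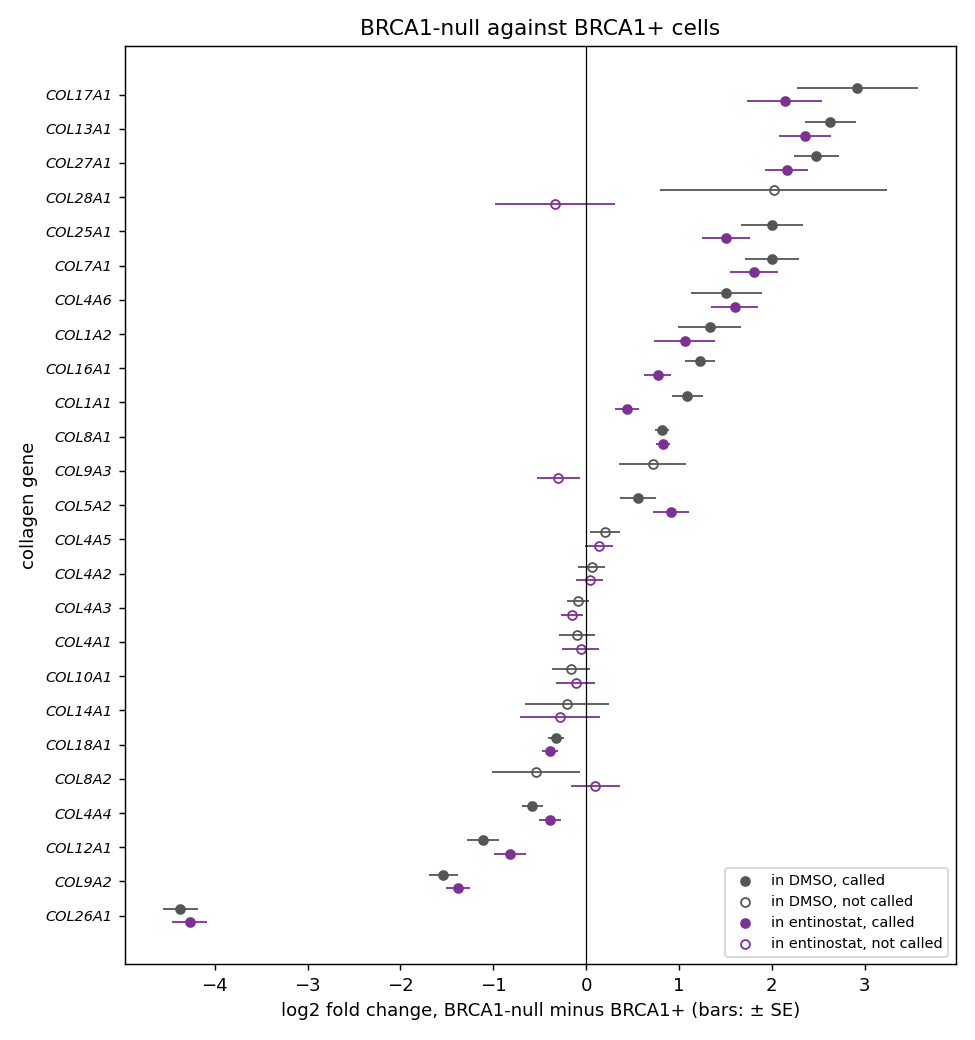
Log2 fold change between the lines (BRCA1-null minus BRCA1+; bars, SE) for 25 collagen genes in DMSO (grey) and entinostat (purple), with filled points for called genes. COL11A1, COL2A1, COL21A1 and COL22A1 are left out because a group was at 0; COL26A1 lies lowest at -4.37 in DMSO and COL17A1 highest at 2.92.

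Of the 11 fibrillar collagen genes 6 were tested, and these were called higher in BRCA1-null cells in both media, as were 16.0% of all tested genes. COL11A1 and COL2A1 are among those that passed the filter through BRCA1-null libraries alone. COL27A1, a fibrillar collagen of cartilage and developing tissues, had 316 and 200 counts in BRCA1+ controls, 327 and 301 in treated BRCA1+ libraries, 1510 and 1864 in BRCA1-null controls and 1602 and 1615 in treated BRCA1-null libraries. Every BRCA1-null library thus lay above every BRCA1+ library, with log2 fold changes of 2.48 ± 0.241 (SE, adjusted p = 4.56e-05) in DMSO and, in entinostat, 2.16 ± 0.231 (adjusted p = 9.21e-05). COL1A2, which contributes the second kind of chain to collagen I, had 533 and 407 counts in BRCA1+ control and 1604 and 1124 in BRCA1-null control libraries. With entinostat these were 579 and 536 against 1736 and 977, so that its libraries did not overlap between the lines in either medium. With 2 libraries a group this is common: in CPM, 27.8% of all tested genes were higher in both BRCA1-null libraries than in both BRCA1+ libraries in each medium. Its log2 fold change was 1.33 ± 0.337 (adjusted p = 0.0109) in DMSO and, in entinostat, 1.06 ± 0.329 (adjusted p = 0.0295). This rested on single libraries: in DMSO it was 1.06 without BRCA1+ control 2 and 0.93 without BRCA1-null control 1, and in entinostat 0.73 without BRCA1+ entinostat 2 and 0.68 without BRCA1-null entinostat 1, none of them called.

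COL1A1, the main chain of collagen I, had 178 and 187 counts in BRCA1+ control and 411 and 493 in BRCA1-null control libraries. The difference was 1.09 ± 0.166 on the log2 scale (SE, adjusted p = 6.98e-04) in DMSO and, in entinostat, 0.44 ± 0.126 (adjusted p = 0.0203), the latter not called without BRCA1+ entinostat 2 (0.36) or BRCA1-null entinostat 1 (0.25). Its 50 nearest tested genes on chromosome 17 had a median of 0.58 in DMSO, with 30 called higher and 2 lower, and 0.64 in entinostat, and the part of this in the COL1A1 difference was not tested. COL5A2, a minor chain of the fibrils that collagen I forms, had 108 and 117 counts in BRCA1+ controls, 87 and 120 in treated BRCA1+ libraries, 205 and 181 in BRCA1-null controls and 241 and 200 in treated BRCA1-null libraries. It was 0.56 ± 0.193 (adjusted p = 0.0395) higher in DMSO, a call lost without any of the libraries except BRCA1-null control 2 (0.37 to 0.60), and 0.91 ± 0.194 (adjusted p = 0.00465) in entinostat, lost without BRCA1+ entinostat 2 (0.85). Its partner COL5A1 had at most 2 counts in any library.

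COL11A1, a chain of cartilage fibrils, was near 0 in BRCA1+ cells and low in BRCA1-null cells. It had 0 counts in both BRCA1+ controls, 0 and 1 in treated BRCA1+ libraries, 8 and 15 in BRCA1-null controls and 22 and 9 in treated BRCA1-null libraries. This is at least 3.22-fold higher in BRCA1-null cells in DMSO, against the floor of 3 counts per library, and a ratio of 27.3 with entinostat, with an exact 95% counting interval of 4.55 to 1113. Without BRCA1+ entinostat 2, which held the single count, that group was at 0. The fitted log2 value of 4.49 was 3.85 without BRCA1+ entinostat 1 and 3.80 without BRCA1-null entinostat 1, still called. COL2A1, the main collagen of cartilage, had 0 counts in both BRCA1+ control libraries and 2 and 4 in BRCA1-null control libraries, too few for a fold. Its call in DMSO (adjusted p = 0.0488) was lost without any one of the 8 libraries. With entinostat it had 3 and 4 counts in BRCA1+ and 36 and 26 in BRCA1-null libraries, a log2 fold change of 2.92 ± 0.558 (adjusted p = 7.90e-04). 

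Among the FACIT genes, COL22A1 was present in a single line. COL22A1, a collagen of tissue junctions such as that of muscle and tendon, had 0 counts in all 4 BRCA1+ libraries, 689 and 745 in BRCA1-null controls and 560 and 474 in treated BRCA1-null libraries. It was at least 205-fold higher in BRCA1-null cells in DMSO (adjusted p = 2.96e-06) and at least 146-fold higher in entinostat (adjusted p = 5.70e-06). Its 50 nearest tested genes had a median log2 fold change of 0.26 in DMSO, with 23 called higher and 3 lower. Around COL16A1 that median was -0.17, with 6 called higher and 18 lower, and neither was tested for a part. COL16A1, a minor collagen associated with fibrils and fibrillin networks, had 540 and 501 counts in BRCA1+ control and 1281 and 1563 in BRCA1-null control libraries, and 1006 and 1542 against 3016 and 1945 with entinostat. The log2 fold change was 1.23 ± 0.163 (adjusted p = 3.45e-04) in DMSO and, in entinostat, 0.77 ± 0.143 (adjusted p = 0.00242). COL21A1 reached at most 12 counts in any library. With entinostat it had 0 counts in both BRCA1+ and 12 and 11 in BRCA1-null libraries, at least 3.26-fold higher. COL22A1 and COL21A1 passed the filter through BRCA1-null libraries alone, so that their direction was set by passing.

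COL9A2 and COL12A1 went the other way. COL9A2, a chain of the cartilage collagen IX, had 396 and 388 counts in BRCA1+ controls, 457 and 741 in treated BRCA1+ libraries, 138 and 177 in BRCA1-null controls and 294 and 225 in treated BRCA1-null libraries. It was lower in BRCA1-null cells, at -1.54 ± 0.155 on the log2 scale (SE, adjusted p = 6.06e-05) in DMSO and, in entinostat, -1.38 ± 0.133 (adjusted p = 5.24e-05). Its partner COL9A3 was not called between the lines (0.72 ± 0.361, adjusted p = 0.131 in DMSO). The third chain, COL9A1, had at most 1 count in any library. COL12A1, a large collagen found along collagen I fibrils, had 4169 and 5354 counts in BRCA1+ control and 2770 and 2290 in BRCA1-null control libraries, and 2435 and 4020 against 2491 and 1653 with entinostat. Its log2 fold change was -1.11 ± 0.172 (adjusted p = 9.32e-04) in DMSO and, in entinostat, -0.82 ± 0.177 (adjusted p = 0.00554). Around COL12A1 on chromosome 6 the 50 nearest tested genes had a median of -0.32 in DMSO, with 25 called lower and 2 higher, and the part of this in COL12A1 was not tested. The same median was -0.26 around COL9A2, with 19 called lower and 4 higher, and 0.39 around COL9A3, with 27 higher and 2 lower. Their part in these genes was not tested either.

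The 3 tested transmembrane collagens, of 4, and collagen VII were called higher in BRCA1-null cells in both media, against the 16.0% of all tested genes given above. COL13A1, found at cell adhesions and the neuromuscular junction, had 31 and 53 counts in BRCA1+ controls, 35 and 47 in treated BRCA1+ libraries, 244 and 365 in BRCA1-null controls and 235 and 243 in treated BRCA1-null libraries, with differences of 2.63 ± 0.272 (SE, adjusted p = 3.38e-05) and 2.36 ± 0.278 (adjusted p = 8.82e-05) on the log2 scale. COL17A1, a hemidesmosome component of basal epithelial cells, had 7 and 20 counts in BRCA1+ control and 142 and 96 in BRCA1-null control libraries, and 24 and 58 against 250 and 161 with entinostat. These gave 2.92 ± 0.652 (adjusted p = 0.00191), or 3.75 without BRCA1+ control 2, and 2.14 ± 0.403 (adjusted p = 0.00140). COL25A1, known from neurons and amyloid plaques, had 24 counts in both BRCA1+ control and 93 and 131 in BRCA1-null control libraries, and 42 and 47 against 133 and 155 with entinostat. Its differences were 2.00 ± 0.333 (adjusted p = 6.88e-04) and 1.51 ± 0.260 (adjusted p = 0.00113). No library of one line overlapped the other line for these 3 genes, and in CPM 20.1% of all tested genes were higher in each of the 4 BRCA1-null than in each of the 4 BRCA1+ libraries.

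COL7A1, the anchoring fibril collagen, had 364 and 200 counts in BRCA1+ controls, 442 and 463 in treated BRCA1+ libraries, 1014 and 1666 in BRCA1-null controls and 1848 and 1790 in treated BRCA1-null libraries. It was higher in BRCA1-null cells by 2.00 ± 0.288 on the log2 scale (SE, adjusted p = 4.55e-04) in DMSO, or 2.61 without BRCA1+ control 1, and, in entinostat, by 1.81 ± 0.258 (adjusted p = 5.17e-04). COL26A1, a secreted protein with short collagen stretches that is known from testis and ovary, showed the largest decrease among the tested collagen genes. It had 869 and 1108 counts in BRCA1+ controls and 755 and 1240 in treated BRCA1+ libraries, but 50 and 61 in BRCA1-null controls and 65 and 51 in treated BRCA1-null libraries. The log2 fold change was -4.37 ± 0.192 (adjusted p = 2.22e-07) in DMSO and, in entinostat, -4.27 ± 0.188 (adjusted p = 3.02e-07), and its 50 nearest tested genes on chromosome 7 had a median of 0.27 in DMSO. By level, COL26A1 ranked 6 of the 39 genes in BRCA1+ control cells, at 7.56 ± 0.561 RPKM, and lay at 0.366 ± 0.00545 RPKM in BRCA1-null control cells.

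The bases before the RefSeq start of COL26A1 (chr7:101362625-101362874, plus strand), shown because its decrease was the largest, held 0 matches of GGGCGG and 0 of CCAAT.
COL26A1: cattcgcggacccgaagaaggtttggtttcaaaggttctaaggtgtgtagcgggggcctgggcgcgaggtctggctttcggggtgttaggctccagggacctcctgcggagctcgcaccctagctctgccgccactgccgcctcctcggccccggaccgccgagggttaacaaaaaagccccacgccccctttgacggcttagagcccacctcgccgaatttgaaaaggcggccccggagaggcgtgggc

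Within the network-forming class, the 2 most abundant chains showed no called difference between the lines. COL4A1 and COL4A2, which form the common collagen IV trimer, gave -0.10 ± 0.195 (SE, 95% interval -0.54 to 0.34, adjusted p = 0.710) and 0.06 ± 0.144 (-0.26 to 0.39, adjusted p = 0.749) in DMSO. COL4A1 had 11235 and 14645 counts in BRCA1+ control and 10484 and 17871 in BRCA1-null control libraries, which overlap. COL8A1, a short-chain collagen of blood vessels and of the membrane beneath the corneal endothelium, had 4656 and 4831 counts in BRCA1+ controls, 4052 and 5204 in treated BRCA1+ libraries, 9016 and 10482 in BRCA1-null controls and 10050 and 8824 in treated BRCA1-null libraries. It was higher in BRCA1-null cells by 0.82 ± 0.0741 (adjusted p = 3.93e-05) in DMSO and, in entinostat, by 0.83 ± 0.0742 (adjusted p = 4.13e-05). COL4A4, a chain of the kidney and inner ear basement membrane, had 1408 and 1511 counts in BRCA1+ control and 1146 and 1114 in BRCA1-null control libraries, and its difference was -0.58 ± 0.115 (adjusted p = 0.00333). In entinostat it was -0.39 ± 0.115 (adjusted p = 0.0232), not called without BRCA1+ entinostat 1 (-0.35), BRCA1+ entinostat 2 (-0.46) or BRCA1-null entinostat 2 (-0.29). Its head-to-head partner COL4A3 was not called (-0.09 ± 0.118 in DMSO, adjusted p = 0.555).

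COL4A5 and COL4A6 lie side by side on chromosome X, and a difference between their line effects was not tested. COL4A6, with 15 and 13 counts in BRCA1+ control and 46 and 47 in BRCA1-null control libraries, was 1.51 ± 0.382 higher on the log2 scale (SE, adjusted p = 0.00792) in DMSO, a call lost without BRCA1+ control 2 (1.31). With entinostat it had 27 and 41 against 135 and 99 counts, a difference of 1.60 ± 0.251 (adjusted p = 6.31e-04). COL4A5 was not called (0.20 ± 0.162, adjusted p = 0.357 in DMSO). The 50 nearest tested genes had a median of 0.56 in DMSO with 30 called higher and 3 lower, and their part in COL4A6 was not tested. COL18A1, whose cleaved end is endostatin, had 9416 and 10734 counts in BRCA1+ control and 7931 and 10984 in BRCA1-null control libraries, from libraries of different depth. At 235 ± 1.17 CPM (SD, n = 2) against 188 ± 19.6 CPM it was lower, at -0.32 ± 0.0869 (SE, adjusted p = 0.0164) in DMSO, a call lost without BRCA1+ control 1 (-0.31), BRCA1+ control 2 (-0.32) or BRCA1-null control 1 (-0.20). In entinostat its difference was -0.39 ± 0.0873 (adjusted p = 0.00643), lost without BRCA1+ entinostat 2 (-0.30). For scale, COL6A1 and COL6A2 differed by 7.41 ± 0.257 and 7.66 ± 0.200 in DMSO.

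The second comparison asked what entinostat did to the collagen genes in each line. In BRCA1+ cells 7 of the 29 tested genes rose and 0 fell, 24.1% of them, where 14.1% of all tested genes were called (8.13% higher, 6.00% lower). In BRCA1-null cells 8 rose and 0 fell, 27.6%, where 10.8% of all were called (7.57% higher, 3.19% lower). COL1A1, COL16A1, COL9A2, COL9A3, COL4A5, COL4A6 and COL8A2 rose in both lines, and COL2A1 in BRCA1-null cells, where its direction was set by passing the filter. Over all tested genes 4.92% rose in both lines. Median log2 fold changes were 0.40 and 0.35, against 0.00 and 0.02 over all genes. They include COL2A1 and COL21A1, which passed the filter through treated BRCA1-null libraries, and COL28A1, which passed through treated BRCA1+ libraries. Medians without these genes were not computed. The count in BRCA1+ cells was 3 without BRCA1+ entinostat 2, and that in BRCA1-null cells 5 without BRCA1-null entinostat 1. Fewer of all tested genes, too, were called with entinostat in a line when any of its libraries was left out. Of the 6 endothelial markers, CDH5 alone was called with entinostat, higher by 2.09 ± 0.363 on the log2 scale (SE, adjusted p = 0.00625) in BRCA1+ and by 0.99 ± 0.255 (adjusted p = 0.0411) in BRCA1-null cells. The summed level of the 6 was 27.5 and 38.7 CPM against 9.70 and 16.4 CPM in BRCA1+ libraries. It was 75.5 and 93.1 CPM against 37.1 and 54.5 CPM in BRCA1-null libraries. CDH5 made up most of the sum with entinostat, at 19.6 and 27.1 CPM against 4.15 and 6.82 CPM in BRCA1+ libraries. In BRCA1-null libraries CDH5 had 62.6 and 84.1 CPM against 26.8 and 46.7 CPM. The part of these markers in the collagen differences was not tested. Of the fibroblast and stroma markers PDGFRA was called higher in BRCA1+ and THY1 in BRCA1-null cells. PDGFRA had 1 and 0 counts in BRCA1+ controls and 12 and 42 in treated BRCA1+ libraries, and passed the filter through treated libraries alone.

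**Figure D3:**
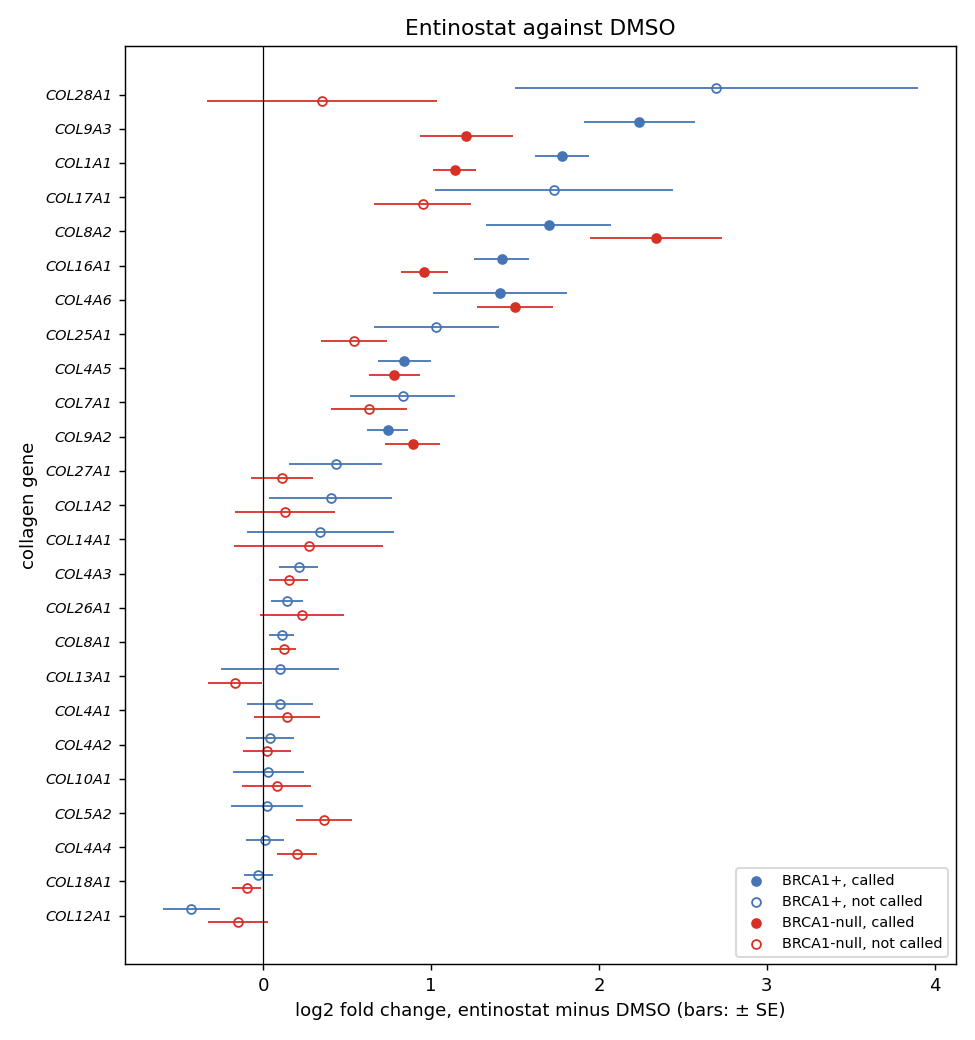
Log2 fold change with entinostat (entinostat minus DMSO; bars, SE) for 25 collagen genes in BRCA1+ (blue) and BRCA1-null cells (red), with filled points for called genes; genes with a group at 0 (COL2A1, COL11A1, COL21A1, COL22A1) are left out. The 7 genes called in both lines lie between 0.74 and 2.34.

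Of the chains of collagen I, COL1A1 rose and COL1A2 was not called. COL1A1 had 178 and 187 counts in BRCA1+ control and 490 and 649 in BRCA1+ entinostat libraries, and 411 and 493 against 1043 and 729 in BRCA1-null libraries. It rose by 1.78 ± 0.163 on the log2 scale (SE, adjusted p = 4.18e-04) in BRCA1+ and by 1.14 ± 0.130 (adjusted p = 0.00195) in BRCA1-null cells, and treated and control libraries did not overlap. In CPM, 18.5% of all tested genes were higher in both treated libraries than in both control libraries in each line. COL1A2 gave 0.40 ± 0.364 (adjusted p = 0.523) in BRCA1+ and 0.13 ± 0.298 (adjusted p = 0.831) in BRCA1-null cells, neither called. The ratio of COL1A1 to COL1A2 per length was 0.305 and 0.419 in BRCA1+ control and 0.773 and 1.11 in BRCA1+ entinostat libraries, and 0.234 and 0.400 against 0.549 and 0.681 in BRCA1-null libraries. Entinostat libraries lay above control libraries in each line.

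COL2A1 had 2 and 4 counts in BRCA1-null controls and 36 and 26 in treated BRCA1-null libraries, a log2 fold change of 3.48 ± 0.598 (SE, adjusted p = 0.00314). It passed the filter on low counts through the treated BRCA1-null libraries alone, so that the direction of this effect was set by passing. In BRCA1+ cells it had 0 counts in both control libraries and 3 and 4 with entinostat, at or near the floor, and was not called (adjusted p = 0.0585).

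Among the FACIT genes COL16A1 and the collagen IX chains rose. COL16A1 went from 540 and 501 to 1006 and 1542 counts in BRCA1+ and from 1281 and 1563 to 3016 and 1945 counts in BRCA1-null libraries, by 1.42 ± 0.165 (SE, adjusted p = 0.00135) and 0.96 ± 0.142 (adjusted p = 0.00522) on the log2 scale. COL9A3 had 47 and 96 counts in BRCA1+ control and 204 and 416 in BRCA1+ entinostat libraries, and 138 and 136 against 351 and 215 in BRCA1-null libraries. It rose by 2.24 ± 0.331 (adjusted p = 0.00263) and 1.21 ± 0.275 (adjusted p = 0.0244), the latter not called without BRCA1-null control 1 (1.32), BRCA1-null control 2 (1.07) or BRCA1-null entinostat 1 (0.90). The 3′ end of COL9A3 overlaps TCFL5, which gave 0.05 ± 0.125 and 0.15 ± 0.119 with entinostat, and reads of the overlap may be shared. COL9A2, with the counts given above, rose by 0.74 ± 0.123 (adjusted p = 0.00619) in BRCA1+ cells, not called without BRCA1+ entinostat 2 (0.65), and by 0.89 ± 0.163 (adjusted p = 0.0117) in BRCA1-null cells, not called without BRCA1-null control 2 (0.95) or BRCA1-null entinostat 1 (0.77). The ratio of COL9A2 to COL9A3 per length was 7.40 and 3.55 in BRCA1+ control and 1.97 and 1.56 in BRCA1+ entinostat libraries, which did not overlap. In BRCA1-null libraries it was 0.878 and 1.14 in control and 0.735 and 0.919 with entinostat, which overlap.

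Among the network-forming genes COL4A5, COL4A6 and COL8A2 rose, 3 that were low or moderate in level. COL4A5 had 695 and 984 counts in BRCA1+ control and 968 and 1801 in BRCA1+ entinostat libraries, and 876 and 1373 against 1742 and 1664 in BRCA1-null libraries. It rose by 0.84 ± 0.160 (SE, adjusted p = 0.0101) and 0.78 ± 0.153 (adjusted p = 0.0153). The BRCA1+ call was lost without BRCA1+ control 1 (0.70) or BRCA1+ entinostat 2 (0.65), and the BRCA1-null call without BRCA1-null control 1 (0.58), BRCA1-null entinostat 1 (0.83) or BRCA1-null entinostat 2 (0.73). COL4A6 rose by 1.41 ± 0.397 (adjusted p = 0.0377) in BRCA1+ cells, a call lost without any of the 4 BRCA1+ libraries (1.21 to 1.61), and by 1.50 ± 0.225 (adjusted p = 0.00473) in BRCA1-null cells. COL8A2, the partner of COL8A1, had 26 and 29 counts in BRCA1+ control and 68 and 95 in BRCA1+ entinostat libraries, and 19 and 25 against 132 and 67 in BRCA1-null libraries. It rose by 1.70 ± 0.372 (adjusted p = 0.0138), again lost without any of the 4 BRCA1+ libraries (1.68 to 1.74), and by 2.34 ± 0.396 (adjusted p = 0.00558).

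For 3 of the genes that rose with entinostat in both lines the bases before the RefSeq start are given. COL8A2 (chr1:36125223-36125472, minus strand) held 7 matches of GGGCGG, some overlapping, and COL16A1 (chr1:31704018-31704267, minus strand) held 2. COL4A5 (chrX:108439588-108439837, plus strand) held 2 matches of CCAAT and 0 of GGGCGG.
COL8A2: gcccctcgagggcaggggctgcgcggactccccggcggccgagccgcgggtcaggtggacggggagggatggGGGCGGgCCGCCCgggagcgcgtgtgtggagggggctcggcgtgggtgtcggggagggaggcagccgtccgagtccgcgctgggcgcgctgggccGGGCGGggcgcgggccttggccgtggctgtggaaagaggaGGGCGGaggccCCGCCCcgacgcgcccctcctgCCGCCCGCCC
COL16A1: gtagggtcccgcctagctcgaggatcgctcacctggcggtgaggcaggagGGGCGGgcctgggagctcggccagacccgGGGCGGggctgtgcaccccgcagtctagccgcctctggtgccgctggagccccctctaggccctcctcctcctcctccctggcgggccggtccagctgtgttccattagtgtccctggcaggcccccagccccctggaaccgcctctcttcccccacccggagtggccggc
COL4A5: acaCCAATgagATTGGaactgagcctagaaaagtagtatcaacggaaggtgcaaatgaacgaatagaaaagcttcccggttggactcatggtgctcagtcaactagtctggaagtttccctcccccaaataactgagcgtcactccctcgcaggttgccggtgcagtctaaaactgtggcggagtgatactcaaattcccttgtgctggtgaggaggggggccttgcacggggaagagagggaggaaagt

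COL8A1 itself gave 0.11 ± 0.0752 (adjusted p = 0.372) and 0.12 ± 0.0731 (adjusted p = 0.321) with entinostat. COL4A1 gave 0.10 ± 0.195 (95% interval -0.34 to 0.54) in BRCA1+ and 0.14 ± 0.195 (-0.30 to 0.58) in BRCA1-null cells, and COL4A2 0.04 ± 0.144 (-0.28 to 0.37) and 0.02 ± 0.144 (-0.31 to 0.34). The most abundant collagen RNAs were thus not called with entinostat. The ratio of COL8A1 to COL8A2 per length was 258 and 240 in BRCA1+ control and 85.7 and 78.8 in BRCA1+ entinostat libraries, and 682 and 603 against 109 and 189 in BRCA1-null libraries, so that it was lower with entinostat in each line. COL4A2 to COL4A1 lay between 1.67 and 2.16 in all 8 libraries.

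**Figure D4:**
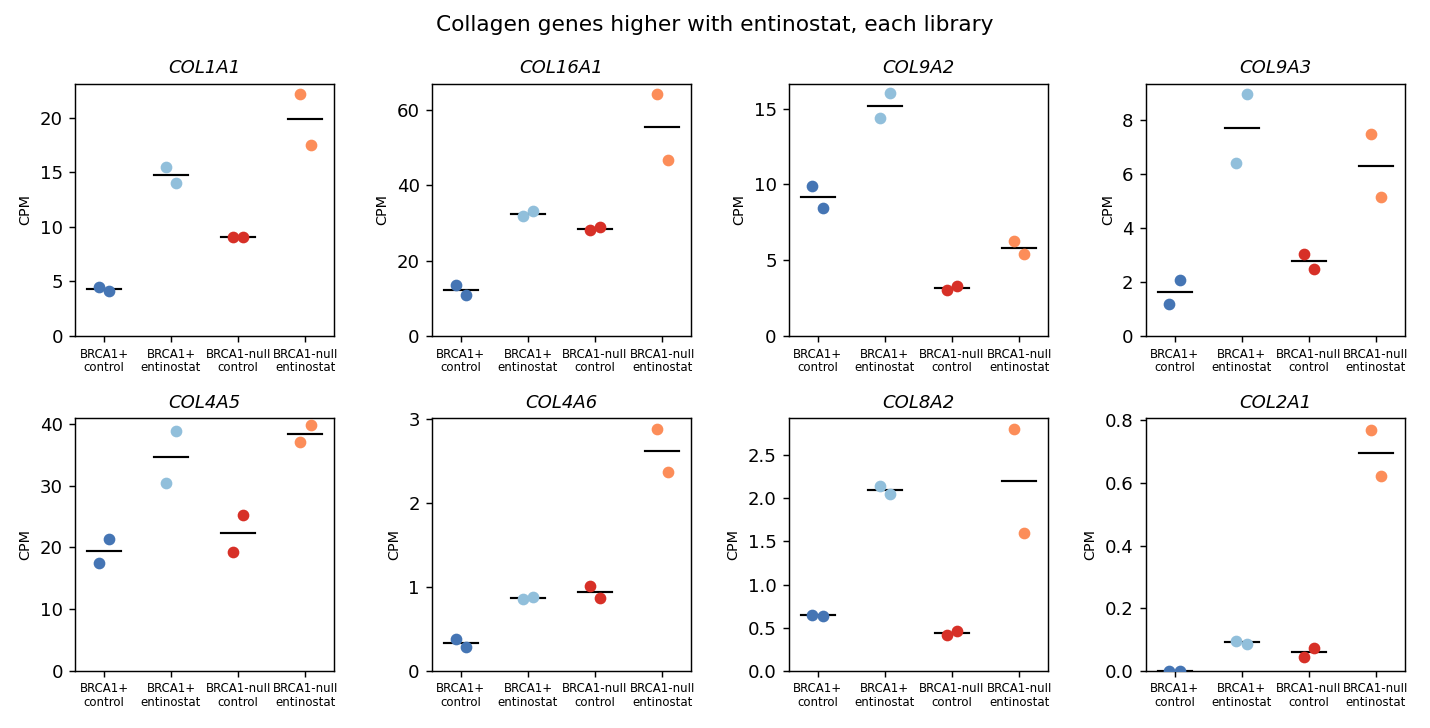
CPM of the 8 collagen genes that rose with entinostat in either line, in each library (points; line, mean of 2) of the 4 groups. The entinostat libraries lie above the control libraries of the same line in all 8 genes, which were picked by that call. In CPM, 18.5% of all tested genes were higher in both treated than in both control libraries in each line. COL2A1 stays under 1 CPM.

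**Figure D5:**
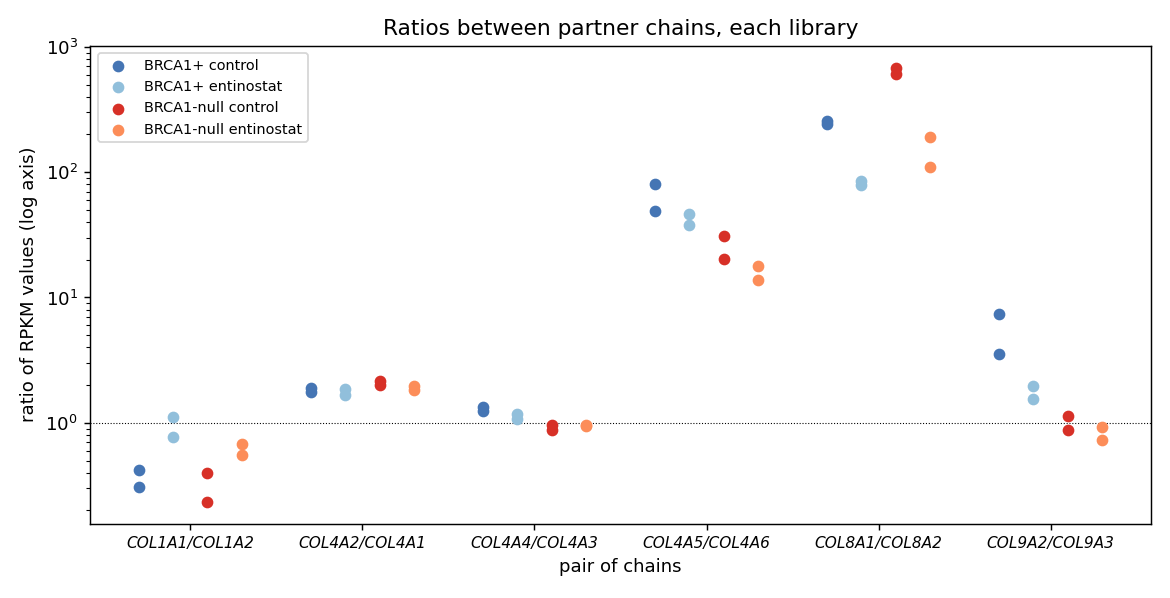
Ratio of RPKM values of 6 pairs of collagen chains (log axis) in each library, coloured by group. COL1A1/COL1A2 is higher and COL8A1/COL8A2 lower with entinostat in each line, while COL4A2/COL4A1 lies between 1.67 and 2.16 throughout.

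Some uncalled members had positive values in both lines. COL7A1 gave 0.83 ± 0.313 (SE, adjusted p = 0.114) in BRCA1+ and 0.63 ± 0.226 (adjusted p = 0.110) in BRCA1-null cells, COL17A1 gave 1.73 ± 0.710 (adjusted p = 0.116) and 0.95 ± 0.288 (adjusted p = 0.0645), and COL25A1 gave 1.03 ± 0.373 (adjusted p = 0.0948) and 0.54 ± 0.199 (adjusted p = 0.117). COL12A1 gave -0.43 ± 0.171 (adjusted p = 0.129) and -0.15 ± 0.178 (adjusted p = 0.655). Among genes with a count in the libraries compared, fitted values were positive for 25 of 28 collagen genes in BRCA1+ and 25 of 29 in BRCA1-null cells, against 50.1% and 53.5% of all tested genes. These tallies include COL28A1 in BRCA1+ cells and COL2A1 and COL21A1 in BRCA1-null cells. Their positive sign was set by passing the filter through treated libraries. The interaction, by how much the entinostat effect in the BRCA1-null line exceeds that in the BRCA1+ line, was called for 0 collagen genes and 0 of all genes by edgeR's quasi-likelihood test. At an unadjusted p under 0.05 it held 3 collagen genes and 827 genes in all. The DESeq2 Wald test called 0 collagen genes and 11 genes in all, and edgeR with the replicate number as a block called 1 gene in all. The line and entinostat comparisons share libraries. COL1A1, COL16A1 and COL4A6 rose with entinostat in both lines and were higher in BRCA1-null cells in both media, as were 209 of all tested genes (1.18%).

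Over whole windows, GGGCGG occurred in 19 of the 29 collagen promoters (65.5%) and in 48.3% of 27305 genes, CCAAT in 41.4% and 39.7%, and TATAAA in 17.2% and 14.0%. Both strands were searched. Of the genes that rose with entinostat, 4 of 5 with an entry held GGGCGG. Median GC content was 66.0% in the collagen windows and 58.3% in all. A match describes letters and not a bound site.

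Genes that make and process collagen moved in both directions between the lines. On a list of 37 genes for collagen modification, folding, export, trimming and cross-linking, 36 were tested, and 10 were higher and 8 lower in BRCA1-null cells in DMSO, with a median log2 fold change of 0.01, against 42.2% called over all genes. CREB3L1, a transcription factor of collagen-secreting cells, was 3.58 ± 0.907 higher on the log2 scale (SE, adjusted p = 6.92e-04), SPARC, a collagen-binding matrix protein, 1.86 ± 0.0998 (adjusted p = 2.87e-06) and the cross-linking enzyme LOXL4 1.44 ± 0.179 (adjusted p = 2.56e-04). CREB3L1 had 1 count in each BRCA1+ control and 14 and 17 in BRCA1-null control libraries. It passed the filter on low counts through BRCA1-null libraries alone, so that its direction was set by passing. ADAMTS14, which removes the amino-terminal propeptide, gave -2.04 ± 0.355 (adjusted p = 0.00132, and -2.87 or -1.45 without BRCA1-null control 1 or 2), and TLL2 and BMP1, proteases of the carboxy-terminal propeptide family, -1.12 ± 0.0959 and -0.91 ± 0.0874 (adjusted p = 2.91e-05 and 5.23e-05). In entinostat 11 were higher and 10 lower, where 20.5% and 18.9% of all genes were.

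With entinostat, 9 of the 36 rose and 1 fell in BRCA1+ cells, where 14.1% of all genes were called, and 8 rose and 0 fell in BRCA1-null cells, where 10.8% were. LEPREL2, of the collagen prolyl hydroxylase family, rose by 1.09 ± 0.142 (SE, adjusted p = 0.00229) in BRCA1+ and by 1.17 ± 0.155 (adjusted p = 0.00328) in BRCA1-null cells. The cross-linking enzyme LOXL2 rose by 1.27 ± 0.268 (adjusted p = 0.0137) in BRCA1+ cells, and LOX by 0.62 ± 0.149 (adjusted p = 0.0318) in BRCA1-null cells. TLL2 fell by 0.34 ± 0.0930 on the log2 scale (adjusted p = 0.0415) in BRCA1+ cells, a call lost without any one of the 8 libraries, with upper-quartile factors (adjusted p = 0.0726), with a stricter filter (0.0528) and with only the groups compared (0.0616). The LOXL2 call was lost without BRCA1+ control 1 (1.05), BRCA1+ entinostat 1 (1.30) or BRCA1+ entinostat 2 (1.23), and that of LOX without any library but BRCA1-null control 1 and the BRCA1+ controls (0.39 to 0.73). The count of 10 called genes in BRCA1+ cells was 5 without BRCA1+ control 2, 4 without BRCA1+ entinostat 1 and 3 without BRCA1+ entinostat 2, and 16 with the replicate number as a block. That of 8 in BRCA1-null cells was 4 without BRCA1-null control 2 or BRCA1-null entinostat 1, and 5 without either other BRCA1-null library.

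Of 11 collagen receptors 10 were tested. In DMSO 3 were higher and 1 lower in BRCA1-null cells, and in entinostat 4 and 1. The 4 called in DMSO are a share close to the 42.2% called over all genes. CD44 gave 1.33 ± 0.116 (SE, adjusted p = 3.40e-05) and the integrin chains ITGA10 and ITGA2 1.32 ± 0.371 (adjusted p = 0.0146, lost without BRCA1+ control 2 or BRCA1-null control 2) and 1.07 ± 0.155 (adjusted p = 6.04e-04) in DMSO. The endocytic collagen receptor MRC2 was lower, at -1.17 ± 0.0903 (adjusted p = 1.74e-05). Between the lines in entinostat, the receptor DDR2 was higher in BRCA1-null cells by 1.94 ± 0.426 (adjusted p = 0.00331). In DMSO DDR2 was not called (0.46 ± 0.366, adjusted p = 0.235). With entinostat ITGA1, which pairs with ITGB1 to bind collagen IV and collagen I, rose by 1.52 ± 0.174 (adjusted p = 0.00115) in BRCA1+ and 1.71 ± 0.144 (adjusted p = 8.05e-04) in BRCA1-null cells. MRC2 rose by 0.55 ± 0.0923 (adjusted p = 0.00895) in BRCA1-null cells. This call was lost without BRCA1-null control 2 (0.52) or BRCA1-null entinostat 1 (0.44). In BRCA1+ cells 1 of the 10 tested receptors was called with entinostat, where 14.1% of all tested genes were. In BRCA1-null cells 2 of the 10 were called, where 10.8% of all were, and 0 receptors fell in either line. The number of receptors called was 1 in BRCA1-null cells without BRCA1-null control 2 or BRCA1-null entinostat 1, and 2 in BRCA1+ cells without either BRCA1-null entinostat library.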

How the data were processed

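The authors deposited one table of raw counts per gene symbol, which was used as it stood. Per the labels and the study's methods, poly(A) RNA libraries were aligned to hg19 with TopHat and counted with NGSUtils. How strand and multi-mapping reads were treated is not given in the sources used here, and genes that overlap a collagen gene can share its reads. Groups came from the sample titles. CPM and RPKM were computed from the counts with effective library sizes and the lengths in the table.

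The edgeR function filterByExpr, given the 4 groups, left 17714 genes. One fit of edgeR 4.0.16 in R 4.3.3 (quasi-likelihood, legacy set to FALSE, TMM scaling) held a mean per group over all 8 libraries, with 4 residual degrees of freedom. Genes were called at a two-sided Benjamini-Hochberg adjusted p under 0.05 over all genes tested. SEs are Wald errors with the moderated dispersion. Where a group was at 0, folds are lower bounds against 3 counts per library. Floors and intervals of counts cover counting error only, since reads are not independent molecules. DESeq2 1.42.0, other scalings, filters and fits, and leaving out each library were tried. The fit was also run on simulated counts with planted changes, as a check of the code only, and its outcome is not given here. One row without a name held 0 counts.

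Collagen genes given in full per comparison were called genes with a group mean of at least 1 CPM, up to the 12 with the largest absolute change. From the 2 further lists the 3 most raised and the 3 most lowered genes were eligible. COL2A1, COL11A1, COL21A1, COL4A6 and other called or uncalled members given beside these were picked with their values in view. The members and lists were chosen with earlier results of these data known.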

Additional observations from a re-analysis of the deposited data

Results flagged for a closer look

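COL21A1, at 0 to 12 counts per library, had CPM values that did not overlap, in opposite directions, between entinostat and control in the 2 lines, though neither effect was called (adjusted p = 0.113 in BRCA1+ and 0.172 in BRCA1-null cells, edgeR's quasi-likelihood test). It had 1 and 6 counts in BRCA1+ control and 0 in both treated BRCA1+ libraries, against 6 and 4 in BRCA1-null controls and 12 and 11 in treated BRCA1-null libraries. The interaction was 6.24 on the log2 scale (unadjusted p = 0.00894, adjusted p = 0.967 by edgeR's quasi-likelihood test), a fitted value that is no bound because a group was at 0. COL28A1, a little-studied collagen, had CPM values that did not overlap between the lines, in opposite directions in the 2 media, and neither effect was called (in DMSO 2.02 with an edgeR adjusted p = 0.136, in entinostat -0.34 with 0.714). It had 3 and 0 counts in BRCA1+ controls, 8 and 11 in treated BRCA1+ libraries, 10 and 5 in BRCA1-null controls and 10 and 7 in treated BRCA1-null libraries, and the interaction was -2.36 (unadjusted p = 0.0792, adjusted p = 0.967). Neither interaction passed the adjusted threshold. COL21A1 passed the filter on low counts through BRCA1-null libraries alone and COL28A1 through BRCA1+ libraries alone. Within these lines the treated libraries let them pass, so that the higher level with entinostat there was set by passing as well. The share of all tested genes with such opposite patterns was not computed, so how common they are is not known here.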

How the results depend on the processing

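Of 54 called differences of collagen genes, 0 reversed under any setting. With other scalings, filters, fits and the DESeq2 Wald test, 48 had an adjusted p in all 8 settings, and 45 of these were called in each. The 6 others, of COL2A1 (3), COL11A1 (2) and COL21A1 (1), had no adjusted p in 1 or 2 settings each, the stricter filter among them, and 5 were called wherever run. With each library left out in turn 37 kept their call. The calls lost in those 8 settings were COL2A1 in DMSO between the lines (adjusted p = 0.0856 with no filter, 0.0604 with the replicate block, 0.0899 with DESeq2), COL5A2 in DMSO (0.0774 with only the groups compared, 0.0779 with DESeq2), COL1A2 in entinostat (0.0763 with DESeq2) and COL9A3 in BRCA1-null cells (0.0534 with only the groups compared). DESeq2 gave COL2A1 no adjusted p with entinostat. The cause was not tested.

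A further threshold of 1 on the size of the log2 fold change left 13 collagen genes between the lines in entinostat and 5 with entinostat in BRCA1-null cells. It left 8, 8, 2 and 1 biosynthesis genes in the 4 comparisons, and of the receptors 2 between the lines in entinostat and 1 with entinostat in BRCA1-null cells. With only the groups compared, 5 biosynthesis genes were called in BRCA1-null cells and 2 receptors in BRCA1+ cells. Over all genes 712 of 17359 and 2580 of 16864 were called there. Leaving out single libraries gave 3 to 7 collagen genes with entinostat in BRCA1+ and 5 to 9 in BRCA1-null cells, 3 to 10 and 4 to 8 biosynthesis genes, and 1 to 2 receptors in each line.

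The replicate numbers give only 2 pairs, and deviations of same-numbered libraries correlated at 0.0523 to 0.287. With the number as a block, 18, 20, 9 and 9 collagen genes were called, and the biosynthesis count in BRCA1+ cells was 16. Over all 17714 tested genes the block gave 8956, 8398, 4314 and 3640 calls in the same order.

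Directions that changed were those of uncalled genes. Without single libraries COL4A1 ranged over -0.38 to 0.15 and -0.34 to 0.17 between the lines in DMSO and entinostat, and over -0.07 to 0.26 and -0.14 to 0.42 with entinostat in BRCA1+ and BRCA1-null cells. COL4A2 ranged over -0.15 to 0.27, -0.17 to 0.23, -0.05 to 0.12 and -0.19 to 0.23 in the same order, and was -0.0022 in the last with only the groups compared. COL4A5 ranged over -0.02 to 0.40 and -0.03 to 0.33 between the lines. With entinostat in BRCA1-null cells COL12A1 ranged over -0.39 to 0.12, COL18A1 over -0.23 to 0.01 and COL1A2 over -0.25 to 0.53. Genes at a few counts per library could not show modest differences at this depth.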
